A study of Populus ussuriensis with 18 samples.

Results

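Roots of Populus ussuriensis after 336 h of low nitrogen (LN) were compared with roots after 96 h of LN. Of the 18 root libraries of the series, 6 belong to this comparison, 3 of LN 96 h and 3 of LN 336 h, taken 10 days apart. Of the 30485 genes in the files, 23796 reached 1 FPKM (fragments counted on a gene, scaled by its length and by the library's total) in 3 or more of these 6 libraries and were tested on log2(FPKM + 1). The plants were wild-type plantlets raised in vitro from micro-cuttings and rooted for 3 weeks on Woody Plant Medium with 10 mM nitrate and 5 mM ammonium under 16 h of light and 8 h of dark. They were then moved to medium with 0.05 mM nitrate and 0.025 mM ammonium, and the whole root system was harvested. Both groups therefore share genotype, rooting, transfer and LN medium, and they differ in the time since transfer. Roots kept on the first medium for 336 h were not analysed here, so a longer time on LN and an older plantlet cannot be told apart. The labels also give each time point its own batch, and batch and time cannot be told apart either. The replicates are labelled as biological. Whether each is 1 plantlet or a pool is not stated, so the p-values measure the spread between these libraries. The sources used here do not give the hour of the day of harvest, but both times are whole days after transfer.

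Plant roots take up nitrate and ammonium through transporters of the NPF, NRT2 and AMT families. Nitrate is reduced to nitrite and then to ammonium, which glutamine synthetase fixes into glutamine. Roots that run short of N reduce the enzymes and regulators that nitrate induces and increase high-affinity uptake and the reuse of N from older tissue. Transcription factors of the AP2/ERF, WRKY, MYB and bHLH families and hormones such as ethylene, jasmonate, cytokinin and auxin link this N status to growth and stress responses.

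The libraries of 96 h held 17628164 to 18086580 fragments counted on genes and those of 336 h 16526488 to 17863307, so that a gene of median length (1707 bp) with 3 fragments has 0.0972 to 0.106 FPKM. Limits from such numbers cover counting error only. Between replicates, the squared difference of the fragments per gene was 1.60 to 1.99 times that expected from counting alone at 96 h. At 336 h it was 2.09 times between replicates 1 and 3, and 5.19 and 6.78 times for replicate 2 against each of them. No 2 replicates therefore agreed within counting error alone, which does not show whether they come from separate plants. Each library was counted as 1 sample, as labelled. Replicate 2 stood slightly apart in a direction that touches the results. It was the highest of the 3 libraries of 336 h in 631 of the 1180 genes called lower and the lowest in 284 of the 645 genes called higher. The median of log2(FPKM + 1) over all genes was 2.842 ± 0.005 at 96 h and 2.834 ± 0.048 at 336 h (SD, n = 3 each). The difference of −0.008 did not exceed the spread between libraries (exact permutation test, two-sided, p = 0.7, where 3 against 3 cannot go below 0.1). It rests on single libraries, since it was 0.013 without replicate 3 of 336 h and −0.034 without replicate 2, where the medians of the groups did not overlap (exact permutation test, p = 0.1, the smallest that 3 against 2 allows).

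More genes were lower than higher after the longer time on LN. By limma with Benjamini-Hochberg adjustment, 1180 of 23796 genes (4.96%) were lower at 336 h and 645 (2.71%) were higher, or 7.67% in all, where a call needed a log2 fold change of 1 or more in size together with an adjusted p below 0.05. Without replicate 2 of 336 h, 1255 genes were lower and 577 higher. On the fragments recovered from FPKM, limma-voom scaled by library totals gave 1926 lower and 1145 higher, more in number and with the same excess of lower genes. The falls were also larger. Of the genes called lower, 287 fell by 2 or more on the log2 scale and 80 by 3 or more, against 69 and 8 of the genes called higher. The middle of the genes moved little, with a median log2 fold change of 0.05 and quartiles of −0.21 and 0.28. In 35.9% of the tested genes every library of 336 h was above every library of 96 h, and in 26.9% every one was below, so the fold limit removed most of the differences that exceeded the spread between replicates. Without a fold limit, 7276 genes were higher and 5652 lower, so the larger number of falls holds only past the fold limit. Within 0.1 of the fold limit on the log2 scale stood 140 higher and 189 lower genes inside it and 173 and 244 outside. The filter was passed through the 96 h libraries alone by 336 genes and through the 336 h libraries alone by 213, and such genes had to differ. Their p-values are therefore not independent support. Of genes described below, Potri.006G218200, Potri.012G134100, Potri.004G141200, Potri.001G438700, Potri.001G192600, Potri.001G027100, Potri.005G187500, Potri.011G083900 and Potri.013G089200 passed through 96 h alone. Potri.015G075800, Potri.007G013200, Potri.007G079800, Potri.008G166200, Potri.010G072300, Potri.005G248900, Potri.003G219300 and Potri.T163000 passed through 336 h alone. FPKM is a share of the fragments counted, so fewer cells of a type and less RNA per cell cannot be told apart in these whole roots.

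**Figure D1:**
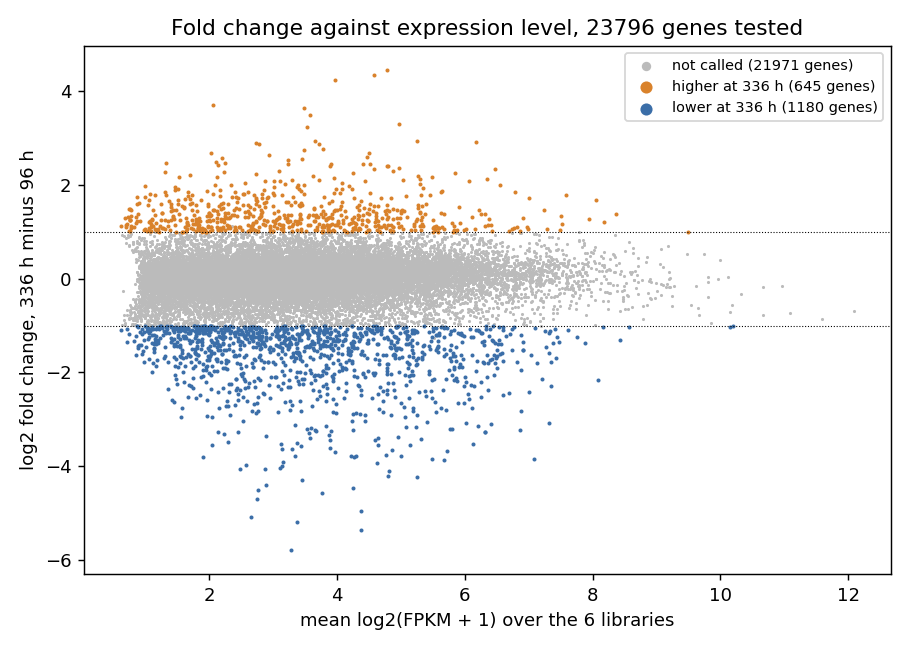
Each of the 23796 tested genes is a point, with its mean log2(FPKM + 1) over the 6 libraries on the x axis and the log2 fold change from 96 h to 336 h on the y axis. The 1180 genes called lower (blue) reach further from 0 than the 645 called higher (orange), and the dotted lines mark the fold limit of 1.

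Gene names come from the study's supplementary tables, which describe 1147 genes chosen by the authors on these libraries, and 946 of these passed the filter. Of the tested table genes, 119 (12.6%) were called higher and 173 (18.3%) lower. Counts for gene groups drawn from these tables are therefore not independent evidence of a direction. They are given beside the 2.71% and 4.96% of all genes and the median log2 fold change of 0.05, as a description and with no test of a group. As every list comes from these tables, the 12.6% and 18.3% of tested table genes are the closer shares to set a count against. Genes were named by the rule given with the processing, and 40 further genes, mostly the copies and relatives of those, were chosen after their values were seen. The table of hormone genes is held in part.

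AP2/ERF transcription factors, which include the response factors of the ethylene pathway and the DREB factors of cold and drought responses, gave 7 of the 12 largest falls among the genes of the study's tables that averaged 5 FPKM or more. Of 75 tested members (of 89 in the list), 37 were lower and 8 higher, with a median log2 fold change of −0.98. The FPKM values of the whole family summed to 3243 to 3335 FPKM at 96 h and 1143 to 1164 at 336 h. Of the tested members, 10 passed the filter through the 96 h libraries alone and 3 through the 336 h libraries alone. The largest fall was that of an ERF017 gene (Potri.006G218200, chr6:23060405-23061500 on the plus strand by the study's table, P. trichocarpa genome, build not named there). It had 32.7, 35.1 and 32.2 FPKM in the 3 libraries of 96 h and 0.255, 0.718 and 0.052 FPKM in those of 336 h. The 3 libraries of 336 h lay between 0.052 and 0.718 FPKM and none came near those of 96 h, with 19 fragments in all against 1964 (log2 fold change −4.71 ± 0.16 SE, adjusted p = 5.6e-07). The same gene passed the filter through the 96 h libraries alone, so its p-value is not independent support for a fall. It had 0.0177 FPKM in the control at 0 h.

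Further genes that the study's tables describe as ERF017 or ERF016 fell with it, among them a run of neighbours on chromosome 6. Potri.006G138700 (chr6:11594937-11595881, plus strand), Potri.006G138800 (chr6:11599661-11600604, plus strand; ERF018 in the paper's own naming) and Potri.006G138900 (chr6:11610889-11611648, plus strand) follow each other there. The first had 36, 37.6 and 35.9 FPKM in the 3 libraries of 96 h and 1.54, 3.07 and 2.05 FPKM in those of 336 h. The second was the most abundant of the run, with 119, 124 and 112 FPKM in the 3 libraries of 96 h and 4.03, 9.49 and 4.1 FPKM in those of 336 h. The third had 8.88, 8.69 and 10.1 FPKM in the 3 libraries of 96 h and 0.884, 1.51 and 0.45 FPKM in those of 336 h. In all 3 neighbours the libraries of the 2 times were far apart, and replicate 2 was the highest library of 336 h. They were 16.4, 20.1 and 9.71 times lower at 336 h by the ratio of mean FPKM, with log2 fold changes of −3.57 ± 0.15, −4.20 ± 0.26 and −2.42 ± 0.18 SE (limma, adjusted p of 1.6e-06, 9.5e-06 and 2.3e-05). A related gene on chromosome 18 (Potri.018G047300, ERF110 in the paper, ERF017 by its UniProt description) fell 28.4-fold, from 89 to 3.14 FPKM. Reads from such similar copies may have been divided between them in mapping, so the values of single copies are uncertain.

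Both ERF109 genes fell to below 1 FPKM on average. ERF109 is known in Arabidopsis as a factor of redox and jasmonate responses in roots. Potri.009G101900 had 22.7 ± 0.631 FPKM at 96 h and 0.563 ± 0.497 at 336 h (log2 fold change −3.97 ± 0.19 SE, adjusted p = 2.6e-06) and Potri.004G141200 21.8 ± 1.19 FPKM at 96 h and 0.393 ± 0.312 at 336 h (log2 fold change −4.06 ± 0.14 SE, adjusted p = 6e-07; SD, n = 3 each). A DREB1D gene (Potri.012G134100), a factor of the CBF group known for cold responses, had 32.9, 31.9 and 34.7 FPKM in the 3 libraries of 96 h and 0.716, 0.516 and 0.583 FPKM in those of 336 h. Its libraries of 336 h lay within 0.516 to 0.716 FPKM, 54.8 times below the mean of 96 h (log2 fold change −4.41 ± 0.07 SE, adjusted p = 3.7e-08). This gene and Potri.004G141200 passed the filter through the 96 h libraries alone, so their p-values are not independent support for a fall.

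The falls also covered the AP2/ERF genes with the highest FPKM at 96 h. The ERF9 gene Potri.007G138100 had 465, 479 and 451 FPKM in the 3 libraries of 96 h and 49.8, 64.8 and 48.4 FPKM in those of 336 h. The ERF6 gene Potri.001G154200 went from 314 to 43.3 FPKM and the ERF105 gene Potri.003G150800 from 310.2 to 69.4 FPKM. They were 8.56, 7.25 and 4.47 times lower at 336 h. RAP2.3 (Potri.014G126100), which the study names and which is known in Arabidopsis as an oxygen-sensing ERF of group VII, went from 70.8 to 22.6 FPKM (log2 fold change −1.61 ± 0.06 SE, adjusted p = 9.5e-07). A second RAP2.3 gene (Potri.002G201600) fell from 100.5 to 18.4 FPKM, while another (Potri.008G210900) had 119 ± 2.7 FPKM at 96 h and 224 ± 17.6 at 336 h and was not called. ACS2 (Potri.001G099400), an enzyme of ethylene synthesis, was 9.08 times lower (10.6 ± 0.468 FPKM at 96 h and 1.16 ± 0.233 at 336 h; SD, n = 3). ACO1 (Potri.011G020900), the enzyme of the last step of that synthesis, had 5.88 ± 0.221 FPKM at 96 h and 11.9 ± 3.59 at 336 h and was not called, since its log2 fold change of 0.87 was below the limit, though it was 1.12 without replicate 2 of 336 h.

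Among the 8 AP2/ERF genes that rose, 4 carry the description ERF1B, the Arabidopsis factor that ethylene and jasmonate both induce. They are Potri.002G039100 (1.79 to 9.06 FPKM), Potri.005G223200 (1.64 to 6.2 FPKM), Potri.010G072300 (0.319 to 2.77 FPKM) and Potri.008G166200 (0.405 to 2.33 FPKM). Their log2 fold changes were 1.85, 1.45, 1.48 and 1.26. Their means were under 10 FPKM in both groups. Potri.010G072300 and Potri.008G166200 passed the filter through the 336 h libraries alone and so had to differ. These 4 genes therefore went the other way from the ERF6, ERF9 and ERF105 genes, which were many times more abundant at 96 h.

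**Figure D2:**
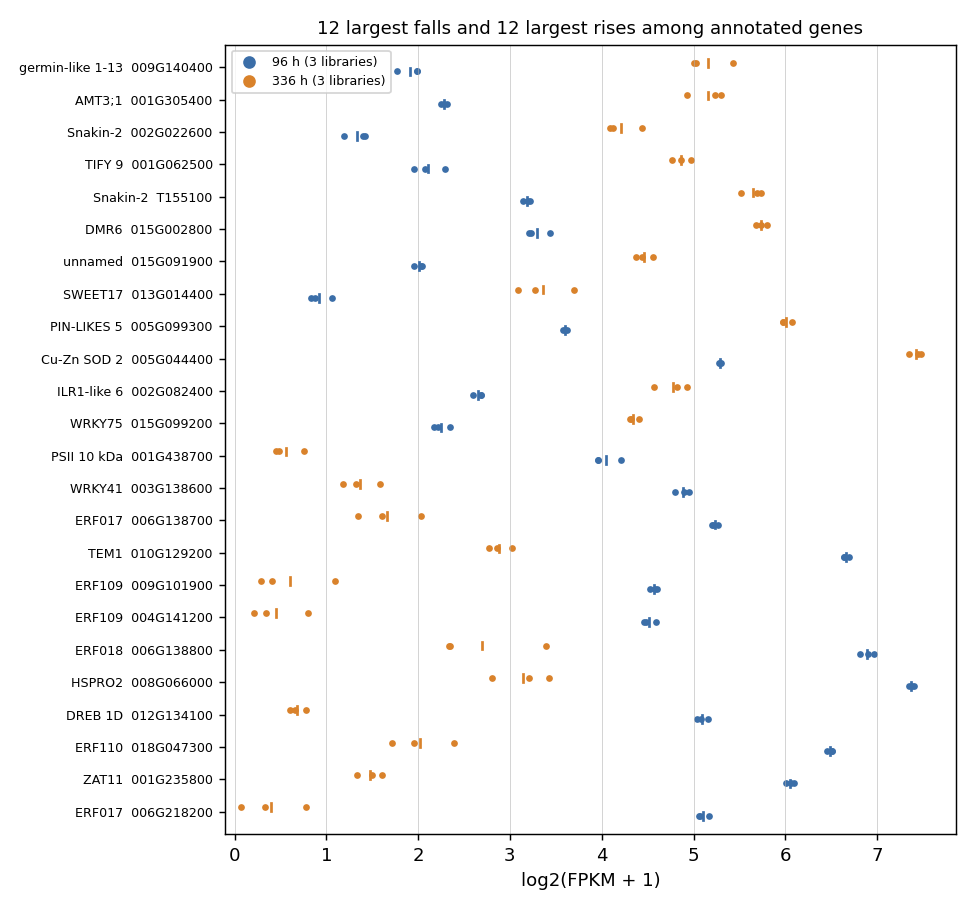
Each row is a gene of the study's tables, the 12 with the largest rise and the 12 with the largest fall among called genes that averaged 5 FPKM or more, with log2(FPKM + 1) of each of the 3 libraries of 96 h (blue) and 336 h (orange) as points and the mean of 3 as a bar. In every row the groups are separate, which the choice of rows required, and the ERF017 gene of chromosome 6 falls from 33.3 to 0.342 FPKM.

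Single B3 factors, WRKY factors and immune regulators fell strongly, while other members of the same groups rose. TEM1 (Potri.010G129200), a repressor with an AP2 and a B3 domain known in Arabidopsis for delaying flowering, had 102, 98.5 and 99 FPKM in the 3 libraries of 96 h and 5.84, 7.15 and 6.24 FPKM in those of 336 h. It was 15.6 times lower (log2 fold change −3.77 ± 0.08 SE, adjusted p = 6.3e-08). A second TEM-like gene (Potri.008G117100) went from 64.3 to 17.7 FPKM. In the B3 list, 6 of 23 tested members were lower and 1 was higher, with a median log2 fold change of 0.01, and the summed level was 305 to 313 FPKM at 96 h and 134 to 142 at 336 h. At 96 h most of that sum came from TEM1 and its relative.

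Of 31 WRKY genes, all of which passed the filter, 8 were lower and 7 higher, with a median of −0.32. WRKY41 (Potri.003G138600) had 28.8, 26.8 and 29.9 FPKM in the 3 libraries of 96 h and 1.27, 2 and 1.5 FPKM in those of 336 h and was 17.9 times lower (log2 fold change −3.52 ± 0.11 SE, adjusted p = 3.1e-07). WRKY40 (Potri.001G044500, 34.4 to 4.82 FPKM) and WRKY33 (Potri.016G128300, 30.3 to 6.72 FPKM) also fell, as did WRKY46 (Potri.002G168700, 12.8 to 1.41 FPKM), which the study names and which is not among the 31. WRKY40 and WRKY33 are known as regulators of immune responses in Arabidopsis. In the other direction, WRKY75 (Potri.015G099200), known in Arabidopsis for responses to phosphate shortage and leaf ageing, had 3.65, 3.5 and 4.08 FPKM in the 3 libraries of 96 h and 19, 18.9 and 20.1 FPKM in those of 336 h. A second WRKY75 gene (Potri.T043800) went from 32.2 to 69.6 FPKM and a WRKY51 gene (Potri.007G079800) from 0.675 to 5.05 FPKM.

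In the group of salicylate and immunity, 9 higher and 5 lower of 35 tested members passed the limits (25.7% and 14.3%, against 12.6% and 18.3% of tested table genes). HSPRO2 (Potri.008G066000), a defence gene whose Arabidopsis relative binds the energy sensor SnRK1, had 166, 168 and 161 FPKM in the 3 libraries of 96 h and 8.25, 9.77 and 5.99 FPKM in those of 336 h and was 20.6 times lower (log2 fold change −4.23 ± 0.14 SE, adjusted p = 5.4e-07). Its copy Potri.010G191300 went from 114 to 17.6 FPKM. The NDR1/HIN1-like genes Potri.009G158900 and Potri.004G197600 went from 359 to 72.3 FPKM and 103.6 to 13.1 FPKM. Among the genes that rose, DMR6 (Potri.015G002800), which hydroxylates salicylate in Arabidopsis and so removes it, had 9.83, 8.24 and 8.39 FPKM in the 3 libraries of 96 h and 52.3, 50.1 and 54.9 FPKM in those of 336 h. A DMR6-like oxygenase (Potri.001G451300) rose from 9.65 to 34.2 FPKM, the lipase-like regulator PAD4 (Potri.007G100600) from 11.5 to 31.4 FPKM and an ALD1 aminotransferase gene (Potri.007G013200), of pipecolate synthesis, from 0.166 to 2.78 FPKM. The ALD1 gene that the study names (Potri.002G091500) was below the filter, at 0.275 and 0.381 FPKM.

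Many heat shock proteins and related chaperones fell. Of 19 tested members (of 21), 10 were lower and none was higher, and limma-voom on the fragments gave 11 lower and again none higher. In 16 every library of 336 h lay below those of 96 h, against 26.9% of all tested genes. In 1 every library lay above, against 35.9%. The median log2 fold change was −1.33. The peroxisomal 15.7 kDa protein (Potri.017G130700) had 89.9, 98.7 and 91.5 FPKM in the 3 libraries of 96 h and 13, 14.7 and 11.5 FPKM in those of 336 h. The chloroplastic 25.3 kDa protein (Potri.010G053400) went from 36.2 to 2.84 FPKM and the mitochondrial 26.5 kDa protein (Potri.001G192600) from 13.9 to 0.501 FPKM. These are small heat shock proteins, which hold unfolded proteins in a state from which they can be refolded. The refolding chaperones HSP70-8 (Potri.010G088600, 9.46 to 1.08 FPKM) and ClpB1 (Potri.015G057000, 15.5 to 3.84 FPKM) fell too. The heat stress transcription factors moved less, with 1 of 10 lower. That 1 was HSFA6b (Potri.002G048200, 4.84 ± 0.359 FPKM at 96 h and 1.36 ± 0.519 at 336 h, log2 fold change −1.33). For Potri.017G130700 the level at 96 h was the high one of the series, with 36.4 FPKM in the control at 0 h and 25 at 48 h, as the plot of levels at every time point shows.

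Many genes of green tissue were lower at 336 h. The list holds 16 genes of the chloroplast and of photosynthesis, and all of them were above the filter. Of these, 8 were called lower and none higher (10 and none by limma-voom), and in 15 of 16 every library of 336 h lay below every library of 96 h, against 26.9% of all genes. The median log2 fold change was −1.0. The CP29.2 antenna protein gene Potri.006G099500 had 139, 141 and 134 FPKM in the 3 libraries of 96 h and 24.3, 37.1 and 27.5 FPKM in those of 336 h and its copy Potri.016G115200 174 ± 6.56 FPKM at 96 h and 46.2 ± 6.18 at 336 h (SD, n = 3). The 10 kDa protein of photosystem II (Potri.001G438700) was 32.1 times lower, at 15.5 ± 1.7 FPKM at 96 h and 0.485 ± 0.175 at 336 h. The summed level of the list was 602 to 642 FPKM at 96 h and 219.9 to 254 at 336 h. These genes are known from green cells, and the part of such cells in the other falls described here was not tested. Other tissue markers did not move with them in the same way. Endodermis markers gave 1 higher and 0 lower of 12 tested with a median of 0.54, epidermis and root hair markers 1 higher and 0 lower of 8 tested with 0.19, and xylem and cambium markers 1 higher and 2 lower of 10 tested with 0.08. Of 10 meristem and cell cycle markers none was called by limma, with a median of 0.33. In 5 every library of 336 h lay above those of 96 h, against 35.9% of all tested genes. In 1 every library lay below, against 26.9%. Limma-voom called 1 higher with library totals and 0 with median ratios. The root cap gene SOMBRERO (Potri.010G176600) had 5.68 ± 0.323 FPKM at 96 h and 7.37 ± 0.984 at 336 h, so markers of root tissues were measured in both groups, in keeping with the tissue label.

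Among the root tissue markers that did pass the limits, WOX4 (Potri.002G124100), a regulator of cambium cells, went from 20.1 to 6.42 FPKM (log2 fold change −1.51 ± 0.08 SE, adjusted p = 4.5e-06). MYB36 (Potri.009G007100), which in Arabidopsis switches on the genes of the Casparian strip, rose from 4.6 to 10.4 FPKM (log2 fold change 1.02 ± 0.1 SE, adjusted p = 9.2e-05). Its log2 fold change was 0.95 without replicate 2 of 336 h and 0.97 without replicate 3 of 96 h, both under the fold limit. SHORT-ROOT (Potri.017G025900), which acts in the formation of the endodermis, had 8.49 ± 0.397 FPKM at 96 h and 15.1 ± 0.695 at 336 h and was not past the fold limit. Of the NAC factors of wood cells, NAC043 (Potri.014G104800) fell from 4.06 to 1.46 FPKM, a call that ended without replicate 3 of 96 h (−0.92) or replicate 2 of 336 h (−0.87), and NAC104 (Potri.003G022800) rose from 2.19 to 5.86 FPKM. WEREWOLF (Potri.015G075800), a MYB factor of the root epidermis, rose from 0.185 to 1.52 FPKM. Both AGL12 genes, MADS factors of root growth, fell, Potri.019G076800 from 6.3 to 1.46 FPKM and Potri.013G102600 from 4.67 to 1.72 FPKM. LBD16 (Potri.002G041200), a factor of lateral root initiation, rose from 2.4 to 6.25 FPKM (log2 fold change 1.08 ± 0.11 SE, adjusted p = 0.00014). As for MYB36 and NAC043, single libraries decided the calls of LBD16 and Potri.013G102600. The log2 fold change of LBD16 was 0.97 without replicate 2 of 336 h, and that of Potri.013G102600 was −0.90 without replicate 3 of 336 h.

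The most abundant members of the list of N assimilation and recycling, which also holds carriers and a haemoglobin, were lower after 336 h. Of its 11 members, all of which passed the filter, 4 were lower and 2 higher. The summed level was 747 to 762 FPKM at 96 h and 298 to 308 at 336 h. Glutamine synthetase (Potri.004G085400), which fixes ammonium into glutamine, had 257, 264 and 255 FPKM in the 3 libraries of 96 h and 78.8, 65.7 and 78.4 FPKM in those of 336 h. It was 3.48 times lower (log2 fold change −1.79 ± 0.08 SE, adjusted p = 2.1e-06), after 1034 FPKM in the control at 0 h. Nitrite reductase NIRA (Potri.004G140800), which makes ammonium from nitrite, had 127, 119 and 121 FPKM in the 3 libraries of 96 h and 47.6, 51.6 and 43.8 FPKM in those of 336 h and was 2.57 times lower (adjusted p = 5.4e-06). Hemoglobin-2 (Potri.009G110800), a non-symbiotic haemoglobin linked to nitric oxide, went from 241 to 44.1 FPKM (log2 fold change −2.44 ± 0.12 SE, adjusted p = 3.2e-06). CLC-b (Potri.001G331700), a relative of vacuolar nitrate exchangers, had 9.65, 9.53 and 10.3 FPKM in the 3 libraries of 96 h and 1.36, 1.62 and 0.921 FPKM in those of 336 h. In each of these 4 genes the groups were separate, as in all 1180 genes called lower. Over all tested genes, 26.9% had every library of 336 h below those of 96 h. In each of the 4 the level at 96 h was already below that of the control (487, 651 and 50.4 FPKM for the last 3).

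The 2 members that rose were neighbouring genes of ureide permease 2, a carrier of allantoin, a compound in which N from purines is moved and stored. Potri.008G095500 had 9.57 ± 0.701 FPKM at 96 h and 27.8 ± 3.03 at 336 h (log2 fold change 1.44 ± 0.09 SE, adjusted p = 1.2e-05). Potri.008G095600 had 17 ± 2.02 FPKM at 96 h and 35.1 ± 3.26 at 336 h and a log2 fold change of 1.00, at the fold limit. It fell below the limit without replicate 1 or 2 of 96 h (0.97 and 0.95) and without replicate 1 of 336 h (0.94).

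Among 15 tested regulators of N signalling (of 18), 3 (20%) were lower and none was higher, with a median of −0.51. Limma-voom called 5 lower and none higher. Of all tested table genes, 18.3% were lower and 12.6% higher. Every library of 336 h lay below those of 96 h in 10 members and above them in 4. Those shares were 26.9% and 35.9% over all tested genes. NLP2 (Potri.001G293300), a relative of the nitrate sensor NLP7 that drives genes of the primary nitrate response, had 73.2, 76.1 and 71.9 FPKM in the 3 libraries of 96 h and 17.1, 16.7 and 17.1 FPKM in those of 336 h. It was 4.34 times lower (log2 fold change −2.05 ± 0.06 SE, adjusted p = 2.2e-07). LBD37 (Potri.005G145500), which nitrate induces in Arabidopsis and which represses N uptake genes there, had 25.9 ± 0.399 FPKM at 96 h and 12.5 ± 2.83 at 336 h (log2 fold change −1.01 ± 0.13 SE, adjusted p = 0.00046). Its fall passed the limit only narrowly, and its log2 fold change was −0.92 without replicate 1 and −0.93 without replicate 3 of 336 h, and just under the limit without replicate 2 of 96 h. KIN10 (Potri.013G090800), a catalytic subunit of the energy sensor SnRK1, had 3.37 ± 0.478 FPKM at 96 h and 0.893 ± 0.231 at 336 h (log2 fold change −1.21 ± 0.11 SE, adjusted p = 8.6e-05). NLP7 (Potri.001G087900) and the SnRK1 subunit β1 (Potri.001G220800) did not reach the fold limit, at −0.87 and −0.96, though the latter had −1.02 without replicate 2 of 336 h. NLP8 (Potri.007G133400), which acts in the nitrate response of seeds in Arabidopsis, had 4.99 ± 0.161 FPKM at 96 h and 9.08 ± 0.999 at 336 h, with a log2 fold change of 0.75.

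Of 7 tested ammonium transporters (of 8), 1 was called, and it was higher. AMT3;1 (Potri.001G305400) had 3.86, 3.74 and 3.96 FPKM in the 3 libraries of 96 h and 36.6, 29.6 and 38.3 FPKM in those of 336 h. It was 9.03 times higher (log2 fold change 2.88 ± 0.1 SE, adjusted p = 5.6e-07), against 0.671 FPKM in the control at 0 h. The 3 other AMT3;1 copies, Potri.T000600, Potri.019G000800 and Potri.T000200, had log2 fold changes of 0.25, 0.50 and 0.63 and were not called. The AMT1 genes carried most of the ammonium transporter RNA. AMT1;2A (Potri.019G023600) had 197, 195 and 198 FPKM in the 3 libraries of 96 h and 110.4, 86.7 and 122 FPKM in those of 336 h. Its log2 fold change of −0.89 (SE 0.12, adjusted p = 0.00049) did not reach the fold limit. The groups did not overlap, but in 26.9% of all tested genes every library of 336 h was likewise below. AMT1;1 (Potri.010G063500) had 103 ± 2.75 FPKM at 96 h and 74.7 ± 10.0 at 336 h. Over the 8 members, the summed level was 335 to 344 FPKM at 96 h and 224 to 287 at 336 h, and AMT1;2A and AMT1;1 made up most of it at both times.

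In the NPF family of nitrate and peptide transporters, 4 higher and 3 lower of 26 tested members (of 32) passed the limits. The copies of NPF7.3, known in Arabidopsis as the NRT1.5 transporter that loads nitrate into the xylem, differed in size of change. NPF7.3C (Potri.014G179400) had 8.26, 8.84 and 8.61 FPKM in the 3 libraries of 96 h and 29.7, 27.1 and 30.3 FPKM in those of 336 h (log2 fold change 1.65 ± 0.07 SE, adjusted p = 1.1e-06). NPF7.3B (Potri.003G088800) had 15.9 ± 0.861 FPKM at 96 h and 36.5 ± 4.9 at 336 h (log2 fold change 1.14 ± 0.1 SE, adjusted p = 5.2e-05). NPF7.3A (Potri.001G145200), the most abundant copy, had 69.6 ± 1.39 FPKM at 96 h and 81 ± 2.13 at 336 h. Its log2 fold change was 0.21, with every library of 336 h above those of 96 h, as in 35.9% of all tested genes. NPF5.2 (Potri.010G068100) and NPF5.4 (Potri.001G027100) fell, from 13.1 to 4.22 FPKM and from 6.69 to 0.322 FPKM. In the NPF3.1 group, NPF3.1B (Potri.010G126300) had 18 ± 0.641 FPKM at 96 h and 26.6 ± 1.63 at 336 h and was not called, and NPF3.1A (Potri.006G033900) was below the filter.

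**Figure D3:**
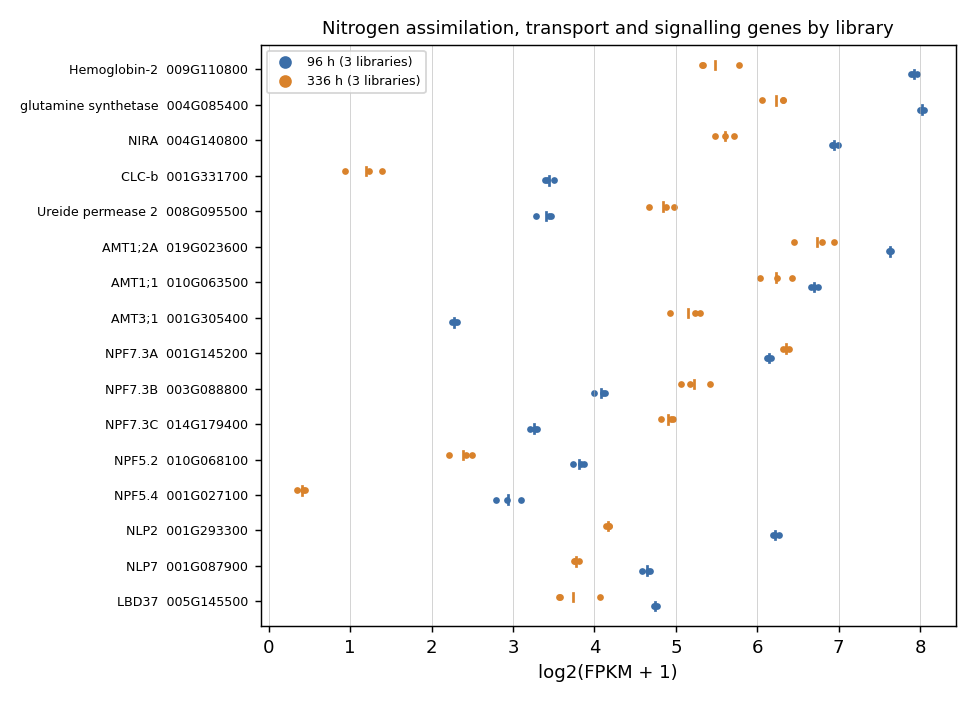
Rows are genes of N assimilation, transport and signalling named in the text, with log2(FPKM + 1) of the 3 libraries of 96 h (blue) and of 336 h (orange) as points and the mean of 3 as a bar. Hemoglobin-2, glutamine synthetase, NIRA, CLC-b, NLP2 and LBD37 lie lower at 336 h, while AMT3;1, ureide permease 2 and NPF7.3B and C lie higher.

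Genes of 2 superoxide dismutases of the copper-zinc type and of their copper chaperone rose. These enzymes turn superoxide into hydrogen peroxide. Cu-Zn SOD 2 (Potri.005G044400) had 38.4, 38 and 37.7 FPKM in the 3 libraries of 96 h and 173, 162 and 178 FPKM in those of 336 h and was 4.5 times higher (log2 fold change 2.14 ± 0.06 SE, adjusted p = 2.6e-07). A further Cu-Zn SOD gene (Potri.013G031100) had 54, 60.2 and 58 FPKM in the 3 libraries of 96 h and 208, 207 and 215 FPKM in those of 336 h. The copper chaperone that loads these enzymes (Potri.001G113800) had 9.8 ± 0.404 FPKM at 96 h and 23.1 ± 1.49 at 336 h (log2 fold change 1.15 ± 0.07 SE, adjusted p = 7.7e-06). Catalase-2 (Potri.005G100400), which removes hydrogen peroxide, fell from 15.9 to 2.13 FPKM (log2 fold change −2.45 ± 0.12 SE, adjusted p = 2.8e-06) and dehydroascorbate reductase DHAR2 (Potri.010G211600) from 69.5 to 33.6 FPKM. Over the whole list of antioxidant enzymes 3 higher and 3 lower of 22 tested passed the limits, with a median of −0.05, and the summed level was 1170 to 1189 FPKM at 96 h and 1192 to 1239 at 336 h.

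Class III peroxidases, which are secreted and can stiffen or loosen cell walls, gave 8 higher and 5 lower of 46 tested (17.4% and 10.9%). Of all tested table genes, 12.6% were higher and 18.3% lower. Peroxidase 52 (Potri.014G143200) had 17.1 ± 0.699 FPKM at 96 h and 1.51 ± 0.549 at 336 h (log2 fold change −2.87 ± 0.14 SE, adjusted p = 2.8e-06), and peroxidase 15 (Potri.003G214900) went from 60.8 to 18.6 FPKM. Genes described as lignin-forming anionic peroxidase fell on chromosome 8 (Potri.008G022700, 24.8 to 5.21 FPKM, and its neighbour Potri.008G022600, 8.16 to 1.47 FPKM) as did a copy on a scaffold (Potri.T160000, 12.8 to 2.07 FPKM), while the scaffold neighbours Potri.T163000 (0.723 to 4.58 FPKM) and Potri.T163100 (1.35 to 4.49 FPKM) rose. The peroxidases that the study names were not called, with log2 fold changes of −0.68 for POD4 (Potri.013G083600), −0.64 for PODN1 (Potri.016G125000) and 0.16 for POD19 (Potri.004G052100). Peroxidase 3 (Potri.007G122100) and a peroxidase 27 gene (Potri.011G027300) rose, from 32.1 to 69.3 FPKM and from 26.5 to 59.5 FPKM. Without replicate 2 of 336 h the log2 fold change of peroxidase 3 was 0.98, under the limit.

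Glutathione S-transferases, which couple glutathione to toxic compounds, gave 5 higher and 4 lower of 38 tested with a median of −0.03. Those are 13.2% and 10.5%, against 12.6% and 18.3% of tested table genes. The microsomal GST3 gene (Potri.017G140900) had 19.6, 17.2 and 19.2 FPKM in the 3 libraries of 96 h and 83.8, 69.2 and 84.3 FPKM in those of 336 h (log2 fold change 2.02 ± 0.09 SE, adjusted p = 2.4e-06). A gene described only as probable GST (Potri.001G437400) went from 126 to 54 FPKM, and another (Potri.T149500) from 85.1 to 184 FPKM. The abundant GST23A (Potri.008G174900) had 147 ± 6.71 FPKM at 96 h and 164 ± 8.93 at 336 h, a difference that did not pass the test (adjusted p = 0.1). The summed level of the family was 2190 to 2242 FPKM at 96 h and 2243 to 2285 at 336 h.

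Germin-like proteins, cupins of the cell wall of which some have superoxide dismutase or oxalate oxidase activity, changed strongly in both directions, with 6 higher and 3 lower of 14 tested (of 21). A gene described as germin-like 1-13 (Potri.009G140400) had the largest rise of the table genes that averaged 5 FPKM or more, with 2.96, 2.97 and 2.41 FPKM in the 3 libraries of 96 h and 31.6, 42 and 31.1 FPKM in those of 336 h. It was 12.6 times higher (log2 fold change 3.24 ± 0.12 SE, adjusted p = 8.6e-07). Its level at 96 h was a low point after 154, 53.7 and 22.1 FPKM at 12, 24 and 48 h, with 0.814 FPKM in the control at 0 h. The most abundant member, germin-like 5-1 (Potri.013G000500), had 101, 106 and 101 FPKM in the 3 libraries of 96 h and 338, 361 and 372 FPKM in those of 336 h. Other genes of the same description fell, among them Potri.013G052100 from 66.8 to 12.4 FPKM and its neighbour Potri.013G052000 from 10.7 to 1.83 FPKM. Copies of this family are alike in sequence, and single values are less certain where reads were divided between them.

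Hormone genes changed by pathway member. The jasmonate group gave 3 higher and 0 lower of 18 tested (of 21), with a median of −0.14. In 7 members every library of 336 h was above those of 96 h, against 35.9% of all tested genes. In 6 members every one was below, against 26.9%, though none was called lower by limma. TIFY 9 (Potri.001G062500), a JAZ repressor that jasmonate induces, had 3.22, 3.89 and 2.86 FPKM in the 3 libraries of 96 h and 28.1, 26.2 and 30.3 FPKM in those of 336 h (log2 fold change 2.76 ± 0.1 SE, adjusted p = 6.3e-07). TIFY 10B (Potri.003G068900) had 2.09 ± 0.367 FPKM at 96 h and 9.91 ± 1.24 at 336 h (log2 fold change 1.82 ± 0.11 SE, adjusted p = 9.7e-06). The third was a Kunitz trypsin inhibitor (Potri.007G111800, 0.812 to 5.24 FPKM), a defence protein that jasmonate induces. The means of TIFY 9 and TIFY 10B were higher still at 48 h, at 126 and 119 FPKM, where replicate 3 stands apart from its group. A further JAZ gene, TIFY 5A (Potri.011G083900), had 1.39 ± 0.164 FPKM at 96 h and 0.305 ± 0.149 at 336 h, with groups that did not overlap, and its log2 fold change of −0.88 did not reach the limit, while limma-voom gave −2.17 and called it lower. MYC4 (Potri.002G176900), an activator that JAZ proteins hold back, had 1.46 ± 0.287 FPKM at 96 h and 3.08 ± 0.268 at 336 h and was not called.

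Gibberellin genes gave 2 higher and 1 lower of 14 tested (14.3% and 7.14%, against 12.6% and 18.3% of tested table genes). GA20-oxidase 2 (Potri.012G132400), of synthesis, rose from 2.05 to 8.98 FPKM, and the receptor GID1C (Potri.013G028700) from 15.4 to 35 FPKM, while a GA2-oxidase (Potri.011G095600), of inactivation, fell from 2.7 to 0.743 FPKM. The GASA peptides, small cysteine-rich peptides of which many respond to gibberellin, gave 5 higher and 1 lower of 12 tested with a median of 0.64. Snakin-2 (Potri.002G022600) had 1.28, 1.68 and 1.63 FPKM in the 3 libraries of 96 h and 16.4, 20.6 and 16 FPKM in those of 336 h and was 11.5 times higher. A second Snakin-2 gene (Potri.T155100) rose from 8.11 to 49.1 FPKM and GASA12 (Potri.017G124200) from 2.13 to 6.9 FPKM. The most abundant member, GASA4 (Potri.017G083000), went the other way, from 238 to 106 FPKM, and the summed level was 289.5 to 309.9 FPKM at 96 h and 239 to 269 at 336 h.

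Cytokinin genes gave 3 higher and 2 lower of 24 tested (12.5% and 8.33%, against 12.6% and 18.3% of tested table genes). The 3 that rose were LOG enzymes, which release the active cytokinin base. They were Potri.005G248900 (0.719 to 3.12 FPKM), Potri.001G005400 (1.26 to 3.79 FPKM) and Potri.003G219300 (0.465 to 2.15 FPKM), and their means were under 5 FPKM in both groups. Potri.005G248900 and Potri.003G219300 passed the filter through the 336 h libraries alone and so had to differ. The call of Potri.001G005400 ended without replicate 3 of 96 h (log2 fold change 0.99). The response regulator ARR9 (Potri.006G041100), which cytokinin induces and which dampens its signal, fell from 24.7 to 9.3 FPKM (log2 fold change −1.32 ± 0.08 SE, adjusted p = 8e-06). A zeatin O-glucosyltransferase (Potri.006G048200), which stores cytokinin in an inactive form, fell from 23.2 to 9.45 FPKM. The auxin group gave 2 higher and 2 lower of 28 tested (7.14% each). PIN-LIKES 5 (Potri.005G099300), a carrier of auxin within the cell, had 11.1, 11.3 and 11 FPKM in the 3 libraries of 96 h and 66.2, 61.7 and 62.1 FPKM in those of 336 h (log2 fold change 2.40 ± 0.06 SE, adjusted p = 1.4e-07). The ILR1-like 6 hydrolase (Potri.002G082400), which frees auxin from conjugates, rose 4.99-fold, from 5.31 to 26.5 FPKM, and PIN-LIKES 2 (Potri.008G127700) fell from 10.9 to 4.32 FPKM. The efflux carrier PIN6 (Potri.005G187500) fell from 2.67 to 0.754 FPKM.

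Clock genes and light regulators differed although both times are whole days after transfer. LHY, a morning factor of the clock, was higher in both copies, Potri.014G106800 with 19.3, 18.3 and 17.7 FPKM in the 3 libraries of 96 h and 50.5, 56.6 and 49.1 FPKM in those of 336 h and Potri.002G180800 with 23.8 ± 0.299 FPKM at 96 h and 50.02 ± 3.93 at 336 h. The latter was at the fold limit, with 0.99 without replicate 2 of 336 h. GIGANTEA, an evening gene, fell in Potri.002G064400, which had 35.1, 33 and 35.6 FPKM in the 3 libraries of 96 h and 15.8, 17.3 and 16 FPKM in those of 336 h (log2 fold change −1.04 ± 0.06 SE, adjusted p = 9.2e-06). Its second copy Potri.005G196700 had 24.9 ± 0.983 FPKM at 96 h and 12.8 ± 0.712 at 336 h and a log2 fold change of −0.91. Of the 10 clock genes 3 were higher and 1 lower. The light-signalling factor HY5 was higher in both copies, Potri.006G251800 from 3.26 to 14.1 FPKM and Potri.018G029500 from 9.46 to 26 FPKM, as was HY5-like (Potri.010G004200, 9.6 to 22.7 FPKM). A shift of some hours in the time of harvest between the groups was not tested, since no hour is given.

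**Figure D4:**
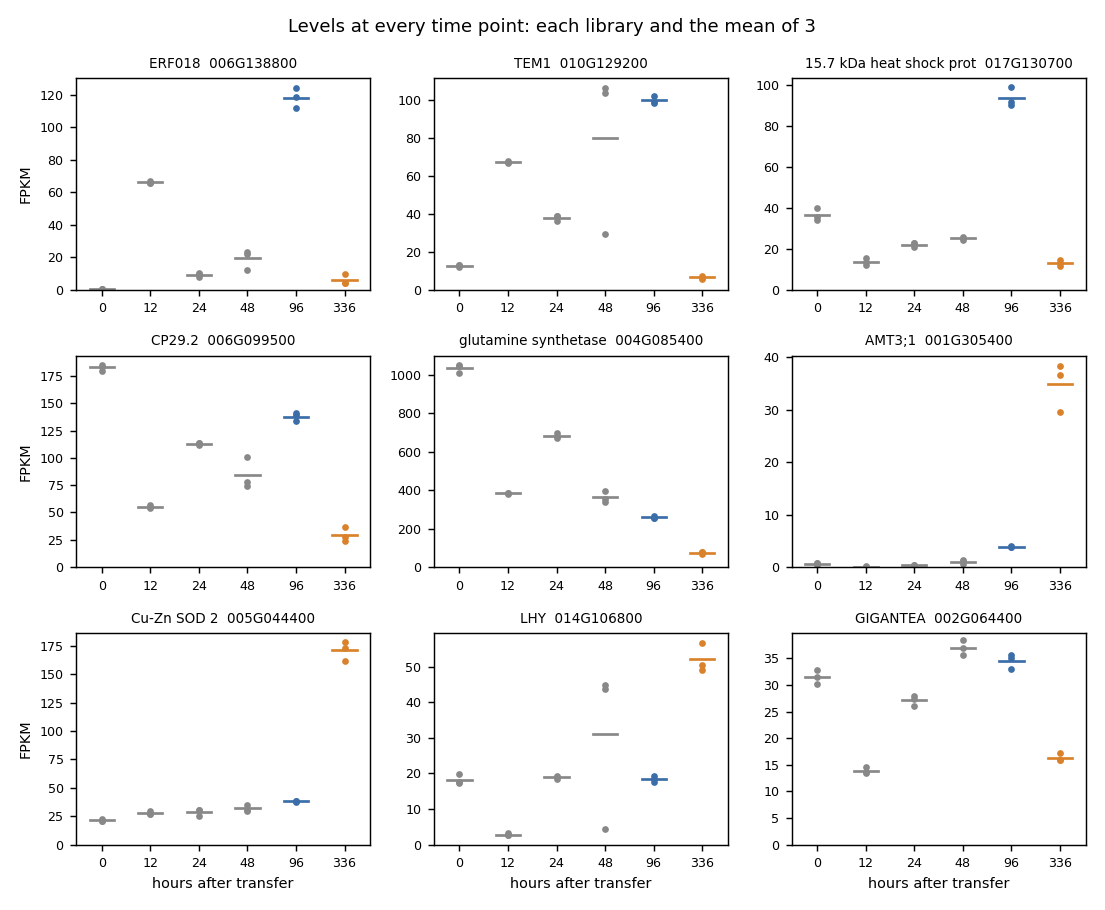
Each panel gives the FPKM of 1 gene in all 18 libraries against the hours after transfer, with the control at 0 h, each library as a point and the mean of 3 as a line, 96 h in blue and 336 h in orange, and the times spaced evenly. ERF018, TEM1 and the 15.7 kDa heat shock protein were high at 96 h, AMT3;1 and Cu-Zn SOD 2 were highest at 336 h, and the low point of TEM1 and LHY at 48 h is replicate 3 of that time, which stands apart from its group.

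The 96 h level was not the baseline of the series for several of these genes. The level of ERF018 was 0.264 FPKM at 0 h, and then 66, 9.21, 19.3, 118 and 5.87 FPKM after 12, 24, 48, 96 and 336 h of LN. TEM1 followed with 12.5, 67.3, 37.8, 79.9, 99.96 and 6.41 FPKM at the same times. In both, the level at 336 h was closer to that at 0 h than the level at 96 h was. Glutamine synthetase, in contrast, had 1034, 384, 683, 363, 259 and 74.3 FPKM, with the lowest level at 336 h. AMT3;1 had 0.671 FPKM at 0 h and 0.972 at 48 h before 3.86 at 96 h and 34.8 at 336 h. These levels are a description, and the differences from the control were not tested here.

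Further families moved in both directions or had few members. MYB genes gave 6 higher and 9 lower of 78 tested (of 97) with a median of 0.04. Those are 7.69% and 11.5%, under the 12.6% and 18.3% of tested table genes. MYB44 (Potri.002G128900) had 12.8 ± 0.617 FPKM at 96 h and 0.878 ± 0.461 at 336 h (log2 fold change −2.91 ± 0.15 SE, adjusted p = 4.1e-06), while MYB44B (Potri.017G017600), the copy that the study names, had 11.6 ± 0.206 FPKM at 96 h and 23.1 ± 2.57 at 336 h. The bHLH family gave 4 higher and 2 lower of 51 tested, the NAC family 1 higher and 3 lower of 14 tested and the bZIP family 5 higher and 3 lower of 24 tested. Among bZIP genes, bZIP60 (Potri.005G257900), a factor of the unfolded protein response, fell from 154 to 49 FPKM (log2 fold change −1.63 ± 0.06 SE, adjusted p = 8.8e-07), and bZIP1 (Potri.002G115900), a factor of energy shortage, from 6.09 to 1.02 FPKM. The NF-Y family gave 2 higher and 0 lower of 7 tested with a median of 0.85, of which NF-YB5 rose most (Potri.014G132600, 4.72 to 19.9 FPKM). The PR-10 family gave 4 higher and 1 lower of 17 tested with a median of 0.41. In it, the abundant MLP-like 31 gene (Potri.010G111000) had 2134 ± 33 FPKM at 96 h and 1244 ± 36.3 at 336 h and was not called (log2 fold change −0.78), and MLP-like 43 (Potri.008G131100) fell from 376 to 146 FPKM. PHL5B (Potri.016G047900), a MYB-type factor of the PHL group, fell from 6.15 to 1.97 FPKM. The zinc finger gene ZAT11 (Potri.001G235800) had 63.2, 67.6 and 65.8 FPKM in the 3 libraries of 96 h and 2.04, 1.81 and 1.53 FPKM in those of 336 h and was 36.6 times lower. SWEET17 (Potri.013G014400), a fructose carrier of the vacuole in Arabidopsis, had 0.9 ± 0.161 FPKM at 96 h and 9.4 ± 2.31 at 336 h (log2 fold change 2.43 ± 0.15 SE, adjusted p = 9e-06).

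Where the mean was 5 FPKM or more, the largest rises and falls of the comparison were in genes that the study's tables do not describe and that are given here by identifier only. Potri.013G089200 had 70.5, 71.7 and 71.7 FPKM in the 3 libraries of 96 h and 0.252, 0.478 and 0.193 FPKM in those of 336 h (log2 fold change −5.80 ± 0.09 SE, adjusted p = 3.6e-08). Potri.008G062300 had 133, 130.1 and 134 FPKM in the 3 libraries of 96 h and 1.94, 2.49 and 2.34 FPKM in those of 336 h (log2 fold change −5.36 ± 0.08 SE, adjusted p = 3e-08). In the other direction, Potri.014G050500 had 4.14, 4.96 and 5.59 FPKM in the 3 libraries of 96 h and 134, 119 and 132 FPKM in those of 336 h (log2 fold change 4.46 ± 0.1 SE, adjusted p = 9.5e-08) and Potri.005G185000 had 4.11, 4.84 and 4.05 FPKM in the 3 libraries of 96 h and 108, 107 and 107 FPKM in those of 336 h (log2 fold change 4.35 ± 0.07 SE, adjusted p = 3.7e-08). Those of the first gene at 336 h rest on 14 fragments, and that gene passed the filter through the 96 h libraries alone. The first 2 were 232 and 58.6 times lower at 336 h, and the latter 2 26.2 and 24.8 times higher.

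**Figure D5:**
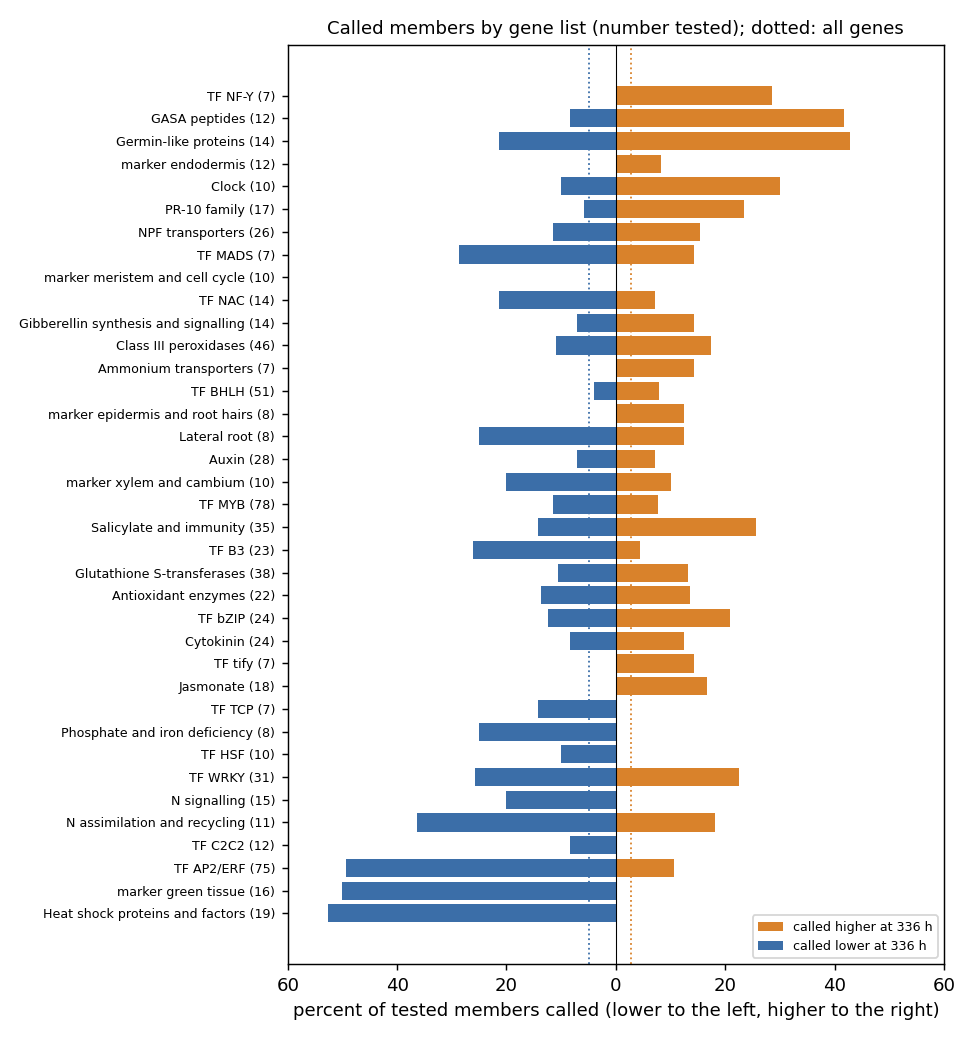
For each gene list with at least 7 tested members (number in brackets), the bars give the percent of tested members called lower (blue, to the left) and higher (orange, to the right) at 336 h, in order of the list's median log2 fold change. Dotted lines mark the 4.96% and 2.71% of all tested genes, and heat shock proteins, green tissue markers and AP2/ERF factors have the longest bars to the left.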

How the data were processed

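Whole roots were sequenced as NEBNext Ultra libraries with paired ends on an Illumina HiSeq. The authors used Bowtie2 and TopHat2 to map the reads to P. trichocarpa. The submitters' processing notes name Bowtie2 2.2.3 and HISAT2 2.1.0. Neither the counting tool nor the genome build is named there, and both are not given in the sources used here. Deposited per gene and library are FPKM values, which the authors computed. Every FPKM value corresponded to a whole number of fragments within 0.001, and the library totals, lengths and counting errors were recovered in this way. A library total is the sum over genes, so reads off the genes are not in it.

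The 3 libraries of LN 336 h were compared with the 3 of LN 96 h as labelled. Genes that reached 1 FPKM in 3 or more of the 6 libraries were fitted with limma 3.58.1 (R 4.3.3) on log2(FPKM + 1) with no block, and p-values were adjusted by Benjamini-Hochberg over all tested genes. A gene was called where its log2 fold change was 1 or more in size and its adjusted p was below 0.05. Fold changes on this scale understate the change of genes of low FPKM. Each ± is an SD over 3 libraries unless named SE. The script was tested on simulated data. The authors tested counts with DESeq2, which needs counts and was not used here. Plots were made with Python 3.11.15 and matplotlib 3.10.9.

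Gene names, positions and the 47 lists come from the study's tables. The members, lists and tests were chosen with earlier results of these data known. Named were (a) among table genes called with a mean of at least 5 FPKM and no overlap, the 12 largest rises and 12 largest falls; (b) up to 4 called members of each list, else its most changed member; (c) genes the study names; and (d) the 2 largest rises and 2 largest falls outside the tables. From these, 149 genes are described, 40 of them beyond the rule. Alternatives were another pseudocount, no filter, quantile normalization, a variance trend, all 18 libraries, a replicate block, each library left out, limma-voom on recovered fragments, and other limits. Comparisons of the other time points with the control were not used here.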

Additional observations from a re-analysis of the deposited data

How the results depend on the processing

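The excess of lower over higher genes was kept under every alternative that kept the fold limit, with 560 to 1145 genes higher and 1051 to 2083 lower. Leaving out 1 library at a time gave 560 to 651 higher and 1051 to 1255 lower. Limma-voom on the recovered fragments gave more calls, 1145 higher and 1926 lower with library totals and 1036 higher and 2083 lower with median ratios. A pseudocount of 0.1 gave 919 and 1624. With no fold limit, 7276 genes were higher and 5652 lower, the only alternative that turned the excess. The difference of the library medians was 0.017 over the genes that pass the filter, and −0.034 to 0.013 with 1 library left out. At −0.034, without replicate 2 of LN 336 h, the groups did not overlap, and in the other cases the difference was within the spread between libraries. Samples with the same replicate number did not deviate together (correlations of 0.006, 0.057 and 0.026), and a fit with the replicate number as a block gave 644 higher and 1182 lower genes and changed no call of a named gene. No gene of the 147 that were tested and named turned its direction. Named calls that a setting ended, other than that of TIFY 10B, were within 0.1 of the fold limit. With all 18 libraries in 1 fit, which include replicate 3 of LN 48 h, TIFY 10B and an LHY gene (Potri.002G180800) no longer passed the test, with adjusted p of 0.26 and 0.12. Leaving out a library also removes from the test genes expressed in that group alone, since the filter still asks for 3 libraries. Counting error limits genes near 0.1 FPKM, the level of 3 fragments in a gene of median length.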
